A study of Saccharomyces cerevisiae with 7 samples.

Results

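Trehalose, a disaccharide of glucose, is made and broken down in budding yeast by the products of 7 genes, whose RNA levels are described here. They are TPS1, TPS2, TPS3 and TSL1 for synthesis and NTH1, NTH2 and ATH1 for breakdown. They were chosen by name, with earlier results of these data known. All 7 were found among the 6665 genes listed for each library and passed the filter on low counts. RNA was measured by sequencing in 7 libraries of Saccharomyces cerevisiae BY4741, a haploid laboratory strain, grown at 30 °C in synthetic complete medium. The titles of all 7 samples read WT (wild type). In the order used below, the groups were log-phase cells moved for 1 h (1 library) or 4 h (1 library) to fresh medium with 100 nM rapamycin, a lawn grown for 3 days on plates (1 library), saturated cultures (2 libraries) and early log-phase cultures at an OD600 of 0.5 (2 libraries). Cultures were seeded at an OD600 of 0.2, and those for rapamycin grew for 4 h before filtration. Filtration and fresh medium are described in the labels for the rapamycin cultures alone, so this handling and the drug cannot be told apart.

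Trehalose serves yeast as a reserve sugar and as a protectant of proteins and membranes, and cells are known to hold more of it when growth slows or stress sets in. A complex of synthase, phosphatase and regulatory subunits joins UDP-glucose to phosphorylated glucose and removes the phosphate, while trehalases split the sugar into glucose. Protein kinase A, which is active in rich growth, is known to restrain the stress transcription factors Msn2 and Msn4 and to activate the neutral trehalase Nth1. Rapamycin inhibits the kinase complex TORC1, a promoter of growth.

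Gene reads numbered 1019287 to 9438379 per library. Reads of the 7 genes made up 0.699% of them at 1 h of rapamycin, 0.462% at 4 h, 0.516% in the lawn, 0.526% and 0.616% in saturated cultures and 0.133% and 0.233% in log phase. Reads of a member ranged from 174 to 21839 per library, so that the exact counting interval (95%) reached at most 16.0% above a value. Such intervals cover counting error only. Of 4 genes that BY4741 is known to lack in whole or in part, LEU2, MET17 and URA3 had at most 44 reads in any library. Those 44 were reads of URA3 in the single library at 4 h of rapamycin (8.97 TPM). Every other library had at most 3 reads of URA3. HIS3 had 126 to 2262 reads, and since that deletion is partial its reads check nothing. Whether replicates were grown apart is not in the labels, and the spread that p-values measure here is that between libraries, part or all of which may be technical. A lower level in these bulk samples may stem from fewer cells with the RNA or from less RNA per cell, and these cannot be told apart.

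The log-phase libraries differed from each other in all 7 genes. Levels are in TPM, read counts divided by gene length and scaled so that each library sums to 1000000, a measure that is comparable between genes. Every member was higher in log-phase replicate 2 than in log-phase replicate 1, by 1.30-fold for TPS3, 1.43-fold for NTH1, 1.54-fold for NTH2, 1.56-fold for TPS1, 1.68-fold for TPS2, 1.95-fold for ATH1 and 2.62-fold for TSL1. The median over 5398 genes with a mean of at least 10 TPM was 1.01-fold, and the ratio of TSL1 was above that of 98.1% of them. Between saturated replicates 2 and 1 the ratios ran from 0.802 for ATH1 to 1.48 for NTH1, on either side of 1. Results that rest on log-phase replicate 1 are therefore also given without it. Leaving it out also widens the spread in the fit used below (common dispersion 0.0784 against 0.0561 with all libraries). A call lost there, here and in later sections, can therefore not be put down to the levels in that library alone.

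**Figure D1:**
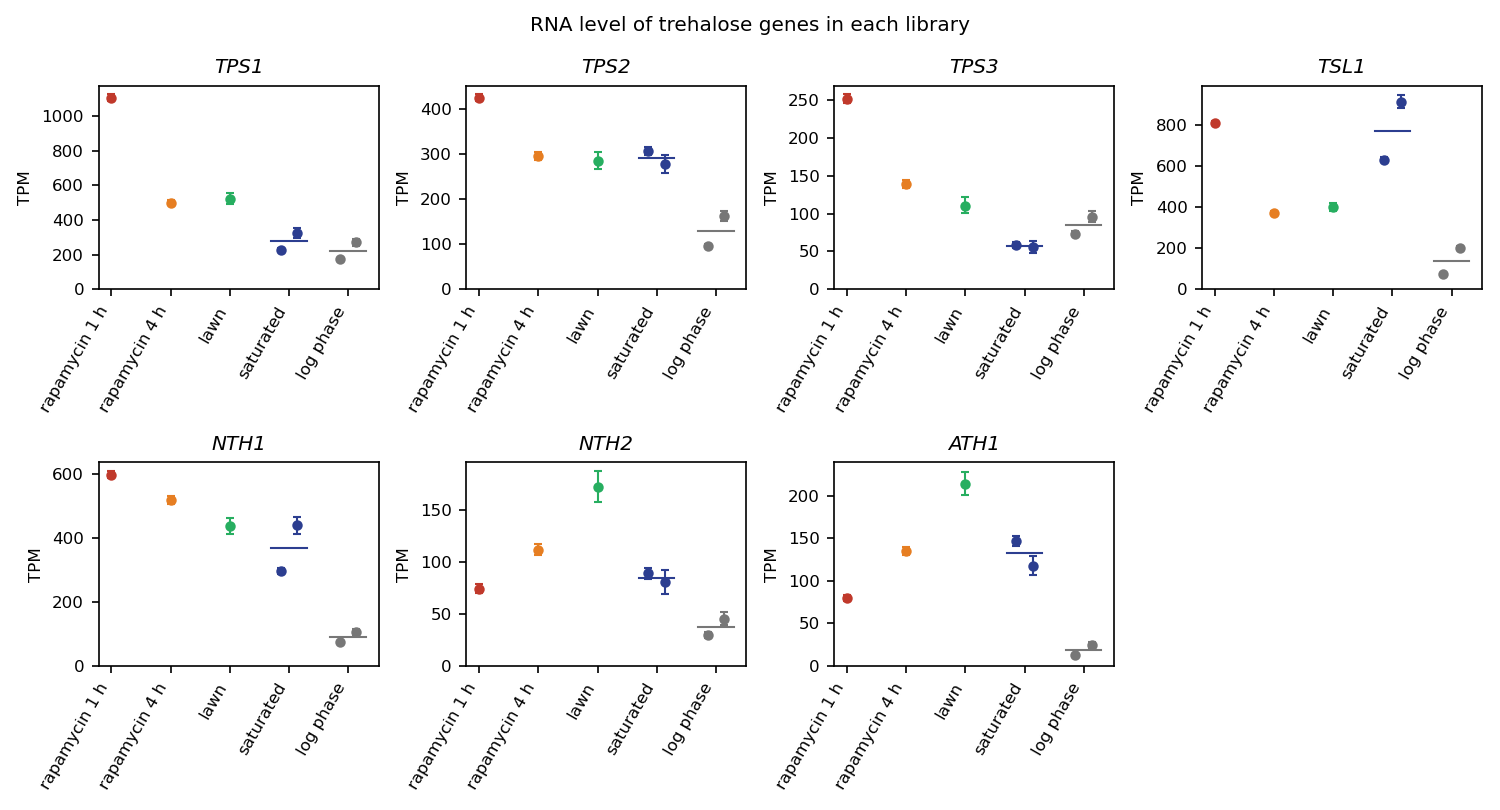
RNA level in TPM (y axis, from 0) of each of the 7 genes by condition (x axis). Points are libraries with exact counting intervals (95%), and lines are means of the saturated and the log-phase pairs. TPS1 stood at 1106 TPM at 1 h of rapamycin and NTH2 and ATH1 had their highest TPM in the lawn.

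TPS1 (YBR126C, chromosome II, 488905 to 490392 in build R64) encodes the synthase that makes trehalose phosphate, the first step of the pathway. Its RNA stood at 1106 TPM at 1 h of rapamycin, 498 TPM at 4 h, 522 TPM in the lawn, 229 and 324 TPM in saturated cultures and 173 and 270 TPM in log phase. The library at 1 h stood above all others, and the saturated and log-phase pairs overlapped on this scale. In an edgeR fit over 5827 genes, with Benjamini-Hochberg adjustment, TPS1 rose at 1 h of rapamycin by a log2 value of 1.78 ± 0.40 (SE, adjusted p = 0.0121). Without log-phase replicate 1 the change was 1.50 and did not pass (adjusted p = 0.136). At 4 h (0.65 ± 0.41), in the lawn (0.70 ± 0.41) and in saturated cultures (0.64 ± 0.34) its changes did not pass (edgeR, adjusted p = 0.268, 0.193 and 0.144 in that order). The interval (95%) of the saturated change, −0.13 to 1.41, leaves room for a rise above 2-fold.

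TPS2 (YDR074W, chromosome IV, 593893 to 596583) encodes the phosphatase that turns trehalose phosphate into trehalose. Its levels were 426 TPM at 1 h of rapamycin, 296 TPM at 4 h, 285 TPM in the lawn, 307 and 278 TPM in saturated cultures and 96.8 and 163 TPM in log phase. Every library outside log phase was above both log-phase libraries. TPS2 rose in saturated cultures by 1.51 ± 0.36 on the log2 scale (edgeR, adjusted p = 0.00658), but without log-phase replicate 1 the change was 1.20 and did not pass (adjusted p = 0.106). At 1 h of rapamycin the change was 1.18 ± 0.41 (adjusted p = 0.0762). It passed there with plain library totals (1.46), by DESeq2 (1.21) and without saturated replicate 1 or 2 (1.16 each). Leaving out a saturated library keeps the 1 h and log-phase libraries but lowers the common dispersion, the fit's measure of spread, from 0.0561 to 0.0328 or 0.0327. Such a pass is not separate evidence, here or in later comparisons that do not use saturated cultures. At 4 h (0.67 ± 0.42) and in the lawn (0.60 ± 0.42) TPS2 did not pass (adjusted p = 0.266 and 0.273).

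TPS3 (YMR261C, chromosome XIII, 790205 to 793369) and TSL1 (YML100W, chromosome XIII, 70624 to 73920) are paralogs that encode the large regulatory subunits of the complex, and their RNAs parted in saturated cultures. TPS3 stood at 252 TPM at 1 h of rapamycin, 139 TPM at 4 h, 111 TPM in the lawn, 58.2 and 55.6 TPM in saturated cultures and 73.7 and 95.9 TPM in log phase. Saturated cultures were the lowest in TPM, below both log-phase libraries. By counts scaled with TMM, the edgeR method that sets library sizes against each other, the pairs overlapped, with 259 and 230 counts per 1000000 (CPM) in saturated cultures and 254 and 325 CPM in log phase. The fitted log2 change in saturated cultures was −0.24 ± 0.29 (edgeR, adjusted p = 0.512, interval (95%) −0.89 to 0.42). At 1 h of rapamycin it was 1.03 ± 0.34 (adjusted p = 0.0628), which passed with DESeq2 size factors (1.06), with plain library totals (1.31) and without saturated replicate 1 or 2 (1.01 each).

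TSL1 had 811 TPM at 1 h of rapamycin, 373 TPM at 4 h, 402 TPM in the lawn, 633 and 916 TPM in saturated cultures and 77.1 and 202 TPM in log phase. In saturated cultures it was the member with the highest TPM in both libraries. It rose there by 2.80 ± 0.50 on the log2 scale (edgeR, adjusted p = 0.00158) and passed under all 10 alternatives tried, with values from 2.28 to 3.55. At 1 h of rapamycin TSL1 rose by 2.01 ± 0.55 (adjusted p = 0.0299), and without log-phase replicate 1 the change was 1.48 (adjusted p = 0.238). The values at 4 h (0.90 ± 0.55, adjusted p = 0.258) and in the lawn (1.00 ± 0.55, adjusted p = 0.177) did not pass. The lawn value passed without saturated replicate 1 (0.83) and without saturated replicate 2 (0.82).

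The ratio of TSL1 to TPS3 in TPM shows the parting within each library, free of scaling between libraries. It was 3.22 at 1 h of rapamycin (exact counting interval 3.13 to 3.31), 2.68 at 4 h (2.56 to 2.80) and 3.64 in the lawn (3.27 to 4.05). Saturated cultures had 10.9 (10.2 to 11.6) and 16.5 (14.2 to 19.2), against 1.05 (0.978 to 1.12) and 2.10 (1.91 to 2.32) in log phase. The saturated pair lay above all other libraries, and the 2 log-phase libraries differed from each other by more than counting error. With 2 libraries against 2 an exact permutation test (two-sided) cannot go below p = 0.333, so the ratio is given without one.

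**Figure D2:**
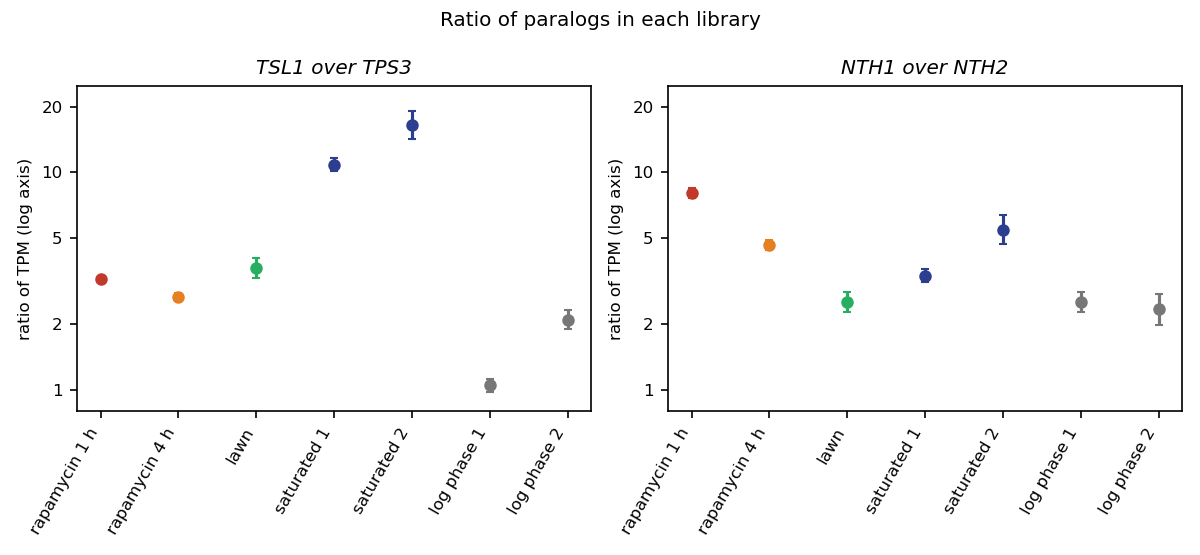
Ratio of TPM between paralogs (y axis, log scale) in each library (x axis), TSL1 over TPS3 on the left and NTH1 over NTH2 on the right, with exact counting intervals (95%). The saturated libraries have a TSL1 to TPS3 ratio of 10.9 and 16.5, and the library at 1 h of rapamycin has an NTH1 to NTH2 ratio of 8.04.

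NTH1 (YDR001C, chromosome IV, 450220 to 452475) encodes the main neutral trehalase of the cytosol, an enzyme switched on by protein kinase A. Its levels were 598 TPM at 1 h of rapamycin, 519 TPM at 4 h, 437 TPM in the lawn, 297 and 440 TPM in saturated cultures and 74.8 and 107 TPM in log phase. All libraries outside log phase were well above both log-phase libraries. NTH1 rose at 1 h of rapamycin by 2.18 ± 0.40 on the log2 scale (edgeR, adjusted p = 0.00414), at 4 h by 2.00 ± 0.40 (0.00806), in the lawn by 1.73 ± 0.40 (0.00805) and in saturated cultures by 2.34 ± 0.36 (0.000702). The changes at 1 h and in saturated cultures passed under all alternatives tried. Without log-phase replicate 1, those at 4 h (1.77, adjusted p = 0.0742) and in the lawn (1.52, adjusted p = 0.083) did not.

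NTH2 (YBR001C, chromosome II, 238941 to 241283), the paralog of NTH1, also encodes a neutral trehalase. It stood at 74.4 TPM at 1 h of rapamycin, 112 TPM at 4 h, 172 TPM in the lawn, 88.9 and 80.5 TPM in saturated cultures and 29.6 and 45.5 TPM in log phase. Its rise in saturated cultures was 1.52 ± 0.30 on the log2 scale (edgeR, adjusted p = 0.00297) and in the lawn 1.67 ± 0.35 (adjusted p = 0.00536). Without log-phase replicate 1 these were 1.25 (adjusted p = 0.0517) and 1.40 (adjusted p = 0.0594) and did not pass. At 1 h of rapamycin the change was 0.46 ± 0.36 (adjusted p = 0.413, interval (95%) −0.35 to 1.26). The change at 4 h, 1.06 ± 0.35 (adjusted p = 0.0534), passed with plain library totals (1.38), with no filter on low counts (1.08) and without saturated replicate 1 or 2 (0.91 each).

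NTH1 RNA exceeded NTH2 RNA in every library, by TPM ratios of 8.04 (exact counting interval 7.61 to 8.51) at 1 h of rapamycin, 4.64 (4.39 to 4.90) at 4 h and 2.54 (2.29 to 2.82) in the lawn. The ratios were 3.34 (3.12 to 3.58) and 5.46 (4.68 to 6.40) in saturated cultures and 2.53 (2.27 to 2.82) and 2.34 (1.98 to 2.77) in log phase. The lawn lay with log phase, and the library at 1 h of rapamycin was the highest. Short reads from stretches that paralogs share may have been split between them, and how the authors counted these is not given in the sources used here.

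ATH1 (YPR026W, chromosome XVI, 615379 to 619014) encodes the acid trehalase, which yeast needs to grow on trehalose supplied from outside. Its levels were 79.6 TPM at 1 h of rapamycin, 135 TPM at 4 h, 215 TPM in the lawn, 147 and 118 TPM in saturated cultures and 12.6 and 24.5 TPM in log phase. It was the rarest member in log phase, far below every other library. In rank, the share of all genes at or below ATH1 was 67.6% at 1 h of rapamycin, 79.8% at 4 h, 87.9% in the lawn, 87.8% and 85.5% in saturated cultures and 27.2% and 40.8% in log phase. ATH1 rose by 3.19 ± 0.40 on the log2 scale in saturated cultures (edgeR, adjusted p = 0.000264), by 3.01 ± 0.44 in the lawn (0.000935), by 2.36 ± 0.43 at 4 h of rapamycin (0.00599) and by 1.58 ± 0.43 at 1 h (0.0308). The first 3 of these passed under all alternatives tried. At 1 h the value was 1.17 without log-phase replicate 1 (adjusted p = 0.282).

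**Figure D3:**
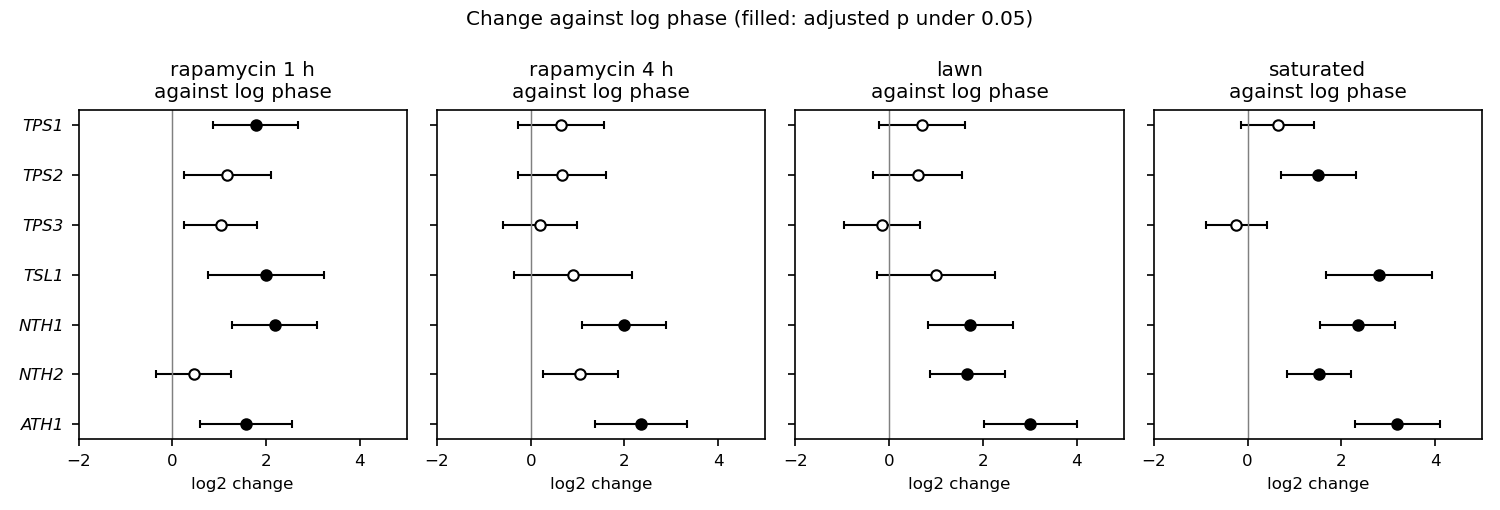
Fitted log2 change against log phase (x axis) of each gene (y axis) in 4 conditions, with 95% intervals from the edgeR fit and filled points where the adjusted p was under 0.05. NTH1 and ATH1 are filled in all 4 conditions, and TPS3 in none.

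Against log phase, 5 of the 7 genes rose in saturated cultures, where 27.9% of the 5827 genes tested were called higher. The number was 4 of 7 at 1 h of rapamycin, with 9.18% of all genes called higher. After 4 h 2 of 7 rose, with 14.8% of all genes called higher, and in the lawn 3 of 7, with 20.7%. The median log2 changes of the members were 1.52 in saturated cultures, 1.58 at 1 h, 0.90 at 4 h and 1.00 in the lawn, beside 0.10, 0.04, 0.06 and 0.04 over all genes. Of these 28 changes, 14 passed as rises and 0 as falls, with 10 of 12 for the trehalases and 4 of 16 for the synthase complex. All 4 comparisons share the log-phase libraries and are not independent of each other, and whether trehalases differ from synthase genes was not tested. Without log-phase replicate 1 fewer members passed in each condition. Their median log2 changes were then 1.25 in saturated cultures, 1.17 at 1 h, 0.37 at 4 h and 0.48 in the lawn. The common dispersion was 0.0784 there, against 0.0561 with all libraries, so the lost calls go with a wider spread as well as with smaller changes. At 1 h and 4 h of rapamycin and in the lawn, the single library has no replicate check and is assumed to vary like the log-phase and saturated pairs.

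Plain library totals moved the median of all genes to 0.47 in the lawn, 0.32 at 1 h and 0.39 at 4 h of rapamycin and −0.21 in saturated cultures. Under that scaling TPS3 in the lawn stood at 0.27, against −0.15 ± 0.36 with TMM, neither of which passed. The TPM values differ in the same manner from the fit. For ATH1 the saturated mean was 7.12 times the log-phase mean in TPM and 9.02 times in TMM-scaled CPM, and for TPS1 it was 1.25 and 1.56 times.

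After 4 h of rapamycin, compared with 1 h, no member passed (0 of 7, with 6.26% of all genes called). One, TPS1, had an unadjusted p under 0.05, and DESeq2 called 0. TPS1 was lower at 4 h by a log2 value of −1.13 ± 0.48, TSL1 by −1.10 ± 0.66 and TPS3 by −0.84 ± 0.41 (edgeR, adjusted p = 0.216, 0.383 and 0.279). NTH1 was at −0.19 ± 0.48 (interval (95%) −1.27 to 0.89), while NTH2 (0.61 ± 0.41) and ATH1 (0.78 ± 0.52) had values above 0. Without saturated replicate 1 or 2, where the fit's common dispersion was 0.0328 or 0.0327 against 0.0561 with all libraries, TPS1 (−1.27 each) and TSL1 (−1.24 each) passed. Both groups hold 1 library, so the fit's spread comes from other groups.

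In the lawn, set against saturated cultures, no member passed either (0 of 7, with 12.2% of all genes called). TSL1 alone had an unadjusted p under 0.05. It stood at −1.80 ± 0.62 on the log2 scale, with 402 TPM in the lawn and 633 and 916 TPM in saturated cultures (edgeR, adjusted p = 0.0993). DESeq2 called it lower (−1.80, adjusted p = 0.00747), as did the edgeR fit without saturated replicate 1 (−2.05) and without saturated replicate 2 (−1.54). In these 2 edgeR fits the common dispersion was 0.0328 and 0.0327, against 0.0561 with all libraries. The passes there go with a narrower spread and are not separate evidence. TPS2 was at −0.91 ± 0.44 and NTH1 at −0.61 ± 0.42. TPS1 (0.06 ± 0.42), TPS3 (0.09 ± 0.35), NTH2 (0.15 ± 0.36) and ATH1 (−0.18 ± 0.45) lay close to 0, with intervals that reach about 1 log2 unit either way for TPS1 and ATH1 (−0.88 to 1.00 and −1.19 to 0.84).

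Ordered by mean TPM, TPS1, TPS2, TPS3, TSL1 and NTH1 had their highest level at 1 h of rapamycin, and NTH2 and ATH1 in the lawn. Log phase was lowest for 6 members and saturated cultures for TPS3. By TMM-scaled CPM, saturated cultures were highest for TPS2, TSL1, NTH1 and ATH1, so the top of the order depends on the scale for these 4. Of 28 pairs of neighbours in the TPM order, 3 differed in the fit. They were NTH1 in saturated cultures over log phase, and ATH1 in saturated cultures over 1 h of rapamycin and at 1 h over log phase. In some pairs the fitted change, with TMM scaling, ran against the TPM order. At 4 h of rapamycin against saturated cultures it was −0.85 for TPS2, −0.46 for NTH2 and −0.84 for ATH1. Against saturated cultures it was also −0.80 for TSL1 at 1 h and −0.61 for NTH1 in the lawn. For TPS3 in the lawn against log phase it was −0.15. The neighbours besides the 3 did not pass the adjusted threshold. Of these, TSL1 in the lawn against saturated cultures and NTH2 at 1 h of rapamycin against saturated cultures (−1.07 ± 0.38, edgeR, adjusted p = 0.0566) had intervals (95%) that left out 0, −3.21 to −0.39 and −1.92 to −0.21. The number was 5 without saturated replicate 1 and 6 without saturated replicate 2. As background to these pairs, the share of all genes called was 15.5% at 4 h of rapamycin against saturated cultures, 1.54% in the lawn against 4 h and 19.0% in the lawn against 1 h. The fit calls 33.6% of all genes different between 1 h of rapamycin and saturated cultures. In that pair TPS3 was higher at 1 h of rapamycin by 1.27 ± 0.34 on the log2 scale (edgeR, adjusted p = 0.0206). TPS1 was at 1.14 ± 0.40 (adjusted p = 0.0556), and it passed under 6 of 8 alternatives tried. TSL1 at 4 h of rapamycin was at −1.90 ± 0.63 against saturated cultures (adjusted p = 0.0716) and also passed under 6 of 8. For both genes the 6 include the fits without saturated replicate 1 or 2. There the common dispersion was 0.0328 or 0.0327, against 0.0561 with all libraries, so those passes are not separate evidence.

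Summed over the synthase complex, RNA reached 2595 TPM at 1 h of rapamycin, 1307 TPM at 4 h, 1320 TPM in the lawn, 1227 and 1574 TPM in saturated cultures and 421 and 731 TPM in log phase. The trehalases summed to 752 TPM at 1 h of rapamycin, 766 TPM at 4 h, 823 TPM in the lawn, 533 and 638 TPM in saturated cultures and 117 and 177 TPM in log phase. Synthase complex RNA exceeded trehalase RNA in every library. The ratio was 3.45 at 1 h of rapamycin, 1.71 at 4 h, 1.60 in the lawn, 2.30 and 2.47 in saturated cultures and 3.60 and 4.14 in log phase. Log phase had the highest ratios and the lawn the lowest.

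Within the complex RNA, both saturated libraries had a lower share of TPS1 and a higher share of TSL1 than every other library. TPS1 made up 42.6% of its TPM at 1 h of rapamycin, 38.1% at 4 h, 39.5% in the lawn, 18.6% and 20.6% in saturated cultures and 41.1% and 37.0% in log phase. TSL1 made up 31.3% at 1 h, 28.6% at 4 h, 30.5% in the lawn, 51.6% and 58.2% in saturated cultures and 18.3% and 27.6% in log phase. ATH1 took 10.6% of trehalase TPM at 1 h of rapamycin, 17.6% at 4 h, 26.1% in the lawn, 27.6% and 18.5% in saturated cultures and 10.8% and 13.9% in log phase. These shares are descriptions without a test.

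**Figure D4:**
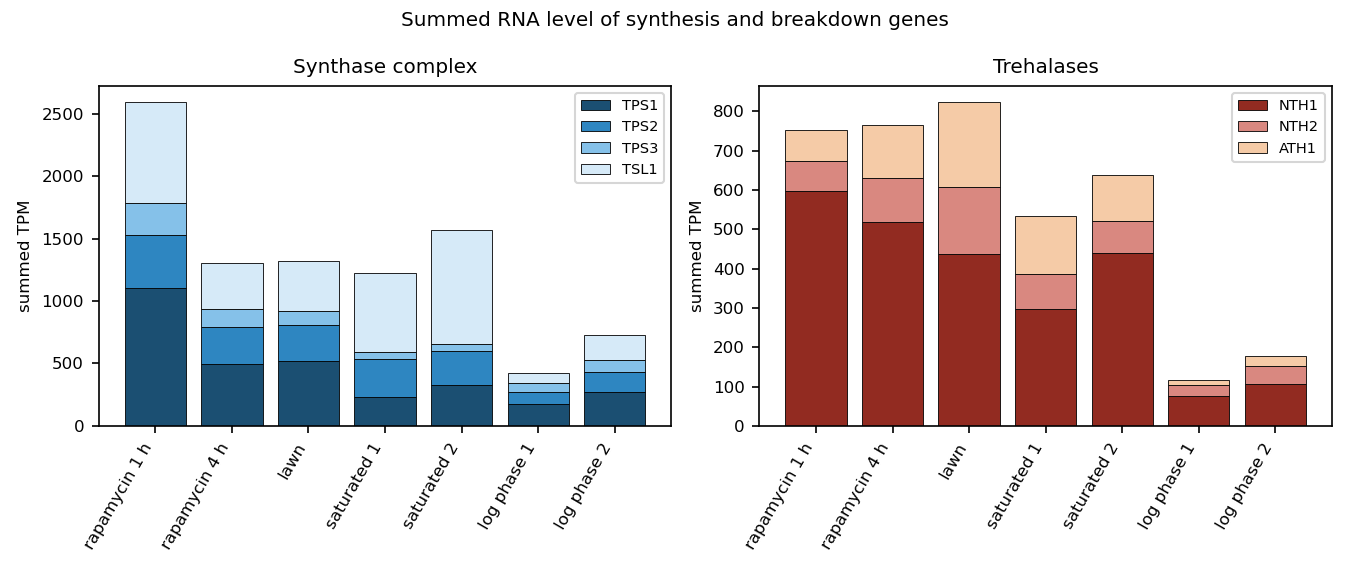
Summed TPM (y axis) of the synthase complex genes (left) and of the trehalase genes (right) in each library (x axis), with the part of each gene stacked. TSL1 makes up 51.6% and 58.2% of the complex RNA in the saturated libraries.

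Genes that supply the substrates of the synthase moved in both directions. So did all genes tested, and the split says nothing particular about this list. In saturated cultures 3 of 7 rose (HXK1, GLK1 and EMI2) and 2 fell (PGM1 and HXK2), where 27.9% of all genes were called higher and 25.1% lower. These were 1 and 1, HXK1 and PGM1, without log-phase replicate 1, and 4 and 1 when log-phase replicate 2 was left out. PGM1, a minor phosphoglucomutase, fell by 3.28 on the log2 scale (SE 0.29), with 9.47 and 8.98 TPM in saturated cultures against 110 and 119 TPM in log phase. PGM2 narrowly missed there (1.30 ± 0.49, edgeR, adjusted p = 0.0507). It passed with DESeq2 size factors (1.29) and by DESeq2 (1.28), but not with plain library totals (0.98). The rise of EMI2 (1.22 ± 0.35) did not pass with plain library totals (0.91), and its value was 0.66 without saturated replicate 2. HXK1, a hexokinase gene, rose by 2.56 ± 0.59 and the glucokinase gene GLK1 by 1.93 ± 0.52, which was 1.35 without log-phase replicate 1 and did not pass (edgeR, adjusted p = 0.0987). At 1 h of rapamycin 3 rose (HXK1, EMI2 and PGM2) and 0 fell, beside 9.18% of all genes called higher and 11.5% lower. The rises there numbered 0 without log-phase replicate 1 and 5 when either saturated library was left out. At 4 h 0 rose and 2 fell (PGM1 and HXK2), beside 14.8% of all genes called higher and 11.5% lower. There 0 rose and 1 fell without log-phase replicate 1, while 2 rose and 1 fell when log-phase replicate 2 was left out. With either saturated library left out, 2 rose and 3 fell. In the lawn 1 rose (PGM2) and 3 fell (HXK2, PGM1 and UGP1, which makes UDP-glucose), beside 20.7% of all genes called higher and 20.9% lower. The lawn rises numbered 0 without log-phase replicate 1 and 3 when any other of the 4 replicated libraries was left out. HXK2, the hexokinase of growth on glucose, had 78.9 TPM in the lawn and 1188 and 996 TPM in log phase, and it fell by 4.33 on the log2 scale (SE 0.52, edgeR, adjusted p = 0.00045). Genes of the lists besides the 3 largest changes in saturated cultures are named after their values were seen.

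Among 7 genes of trehalase regulators and protein kinase A subunits, 2 rose in saturated cultures and 0 fell, where 27.9% of all genes were called higher, a share close to 2 of 7. DCS2 rose by 2.85 ± 0.46 on the log2 scale and DCS1, a decapping enzyme proposed to inhibit neutral trehalase, by 1.95 ± 0.38. Both genes and TPK2, which encodes a catalytic subunit of the kinase, rose at 1 h and 4 h of rapamycin and in the lawn, 3 of 7 each time, beside 9.18%, 14.8% and 20.7% of all genes called higher. Without log-phase replicate 1 the number risen was 1 at 1 h, 1 at 4 h and 2 in the lawn. Falls were those of TPK3 at 1 h (−1.24 ± 0.33) and of BMH1 in the lawn (−1.63 ± 0.42). The list had 0 falls at 1 h by DESeq2, with plain library totals and without log-phase replicate 1 or 2, and 0 falls in the lawn without log-phase replicate 2. Without saturated replicate 1 or 2 it had 2 falls at 4 h, against 0 with all libraries, and 2 in the lawn. BMH1 and BMH2 encode adaptor proteins that bind phosphorylated Nth1, and BMH2 did not pass in any of the 4 comparisons with log phase (−0.09 to 0.93).

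All 5 regulators of stress transcription rose in saturated cultures, where 27.9% of all genes were called higher, and did so under all 10 alternatives tried. MSN4 rose by 3.01 ± 0.36 on the log2 scale, GIS1 by 1.95 ± 0.27 and the heat-shock factor gene HSF1 by 1.88 ± 0.29 (edgeR, adjusted p = 0.000207, 0.000476 and 0.000724). MSN4 had 106 TPM at 1 h of rapamycin, 282 TPM at 4 h, 275 TPM in the lawn, 233 and 198 TPM in saturated cultures and 25.4 and 42.8 TPM in log phase. None of the 5 passed at 1 h of rapamycin (0 by edgeR and by DESeq2, with 2 at an unadjusted p under 0.05), but 2 passed with plain library totals and 2 without saturated replicate 1 or 2. At 4 h 4 of 5 rose, beside 14.8% of all genes called higher, with 2 by DESeq2, 1 without log-phase replicate 1 and 2 when log-phase replicate 2 was left out. In the lawn 4 of 5 rose, beside 20.7% of all genes, and 3 without log-phase replicate 1 or 2. MSN2 was the gene that did not pass at 4 h (0.16 ± 0.31) and in the lawn (0.54 ± 0.32). MAL11, an alpha-glucoside transporter that also carries trehalose, rose by 2.98 ± 0.40 in the lawn, with 61.0 TPM in the lawn against 4.30 and 6.93 TPM in log phase. In saturated cultures its rise of 1.12 ± 0.38 was lost by DESeq2 (1.10), with plain library totals (0.82), and without log-phase replicate 1 (0.78), log-phase replicate 2 (1.34) or saturated replicate 2 (0.76).

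**Figure D5:**
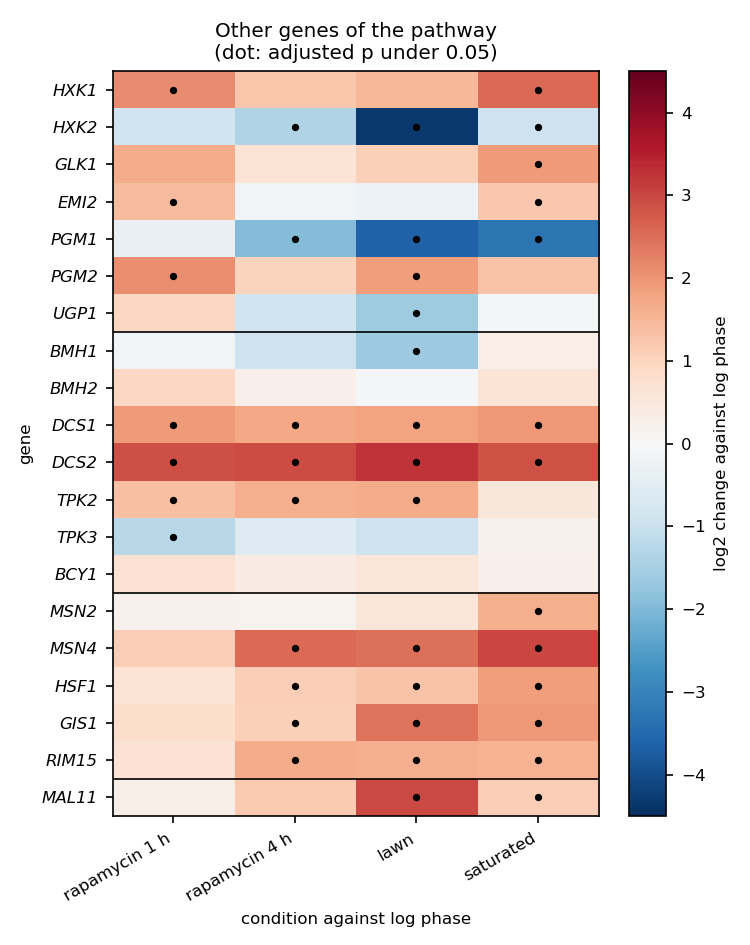
Fitted log2 change against log phase (colour) of 20 other genes of the pathway (y axis) in 4 conditions (x axis), with dots where the adjusted p was under 0.05 and lines between the lists. DCS1 and DCS2 carry a dot in all 4 conditions, and PGM1, HXK2, TPK2, MSN4, HSF1, GIS1 and RIM15 in 3.

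The genes most like a member in pattern were found as those with the smallest root mean square difference of log2(TPM + 1), centred on the mean over 7 libraries, among 4946 genes. Nearest to TPS1 were SDP1 (0.14 log2 units), a MAP kinase phosphatase gene, YSC84 (0.14), LSB5 (0.19), MHF1 (0.22) and INM2 (0.26), where the median gene was at 0.84. Nearest to NTH1 were SDS24 (0.20), FRT2 (0.22), TMA17 (0.24), PEP12 (0.24) and MCO10 (0.26), where the median was 1.14. Nearest to ATH1 were PRX1 (0.19), which encodes a mitochondrial peroxiredoxin, MSN4 (0.24), NNR1 (0.30), PIG2 (0.30) and SDH6 (0.31), where the median was 1.43. Among the members, TPS3 was nearest to TPS1 (0.41, place 88 of 4946), TPS2 to NTH1 (0.52, place 108) and NTH1 to ATH1 (0.65, place 179). The 7 points of each pattern share their libraries and depth with those of every other gene.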

How the data were processed

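The 7 members and 4 lists of other pathway genes were chosen with earlier results of these data known. Cells were BY4741, and RNA depleted of ribosomal RNA was sequenced as single reads of 40 bases, per the labels' protocols. Cutadapt 1.8, STAR 2.4 and build R64 (sacCer3) are named in the submitters' processing notes. For the counting tool and strand, the sources used here give nothing. The authors deposited raw read counts per gene and, per the file headers, TPM, which sums to 1000000 over genes and introns of a library. None of the members has an intron in these files. Of 6665 gene identifiers, 5989 matched a symbol table of R64, whose spans gave coordinates, and 676 did not. Within R64 no member overlaps another listed gene.

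Counts were fitted with edgeR 4.0.16 in R 4.3.3 (quasi-likelihood test, TMM scaling, filterByExpr, 5827 genes, 5 groups, 2 residual and 6.94 prior degrees of freedom, Benjamini-Hochberg adjustment over all genes at 0.05, two-sided). The spread came from the 2 replicated groups. Values after ± are standard errors on the log2 scale, the log2 change divided by the root of the F statistic. DESeq2 1.42.0, other scalings, no filter and leaving out each replicate were alternatives. Counts of replicates were not within sampling noise of each other (chi-square over its degrees of freedom was 34.7 for saturated cultures and 15.7 for log phase). The members, at most 3 genes per list by size of change in saturated cultures, and the 5 genes most like TPS1, NTH1 and ATH1 were named by rule, except 1 list gene that is not reported here and in no count of its list. The fit was tested on simulated counts. For the measure of likeness, a scaled copy of a member was planted among the real genes, which checks the computation only. The design text speaks of 10 samples, and the other 3 were not analysed here.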

Additional observations from a re-analysis of the deposited data

Results flagged for a closer look

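For each of the 7 members, the change against log phase was compared between conditions directly, over 6 pairs of conditions. The conditions differed in that test in 2 results, which were flagged for that reason. Both are from 1 h of rapamycin against saturated cultures, where 33.6% of all genes were called. The 2 of 7 members are near that share, so the count says nothing particular about these genes. The log2 difference of TPS3 at 1 h of rapamycin from saturated cultures was 1.27 ± 0.34 (edgeR, adjusted p = 0.0206), with 252 TPM at 1 h against 58.2 and 55.6 TPM in saturated cultures. It passed under all 8 alternatives tried, from 1.26 to 1.86. For ATH1 the same log2 difference was −1.61 ± 0.48 (edgeR, adjusted p = 0.0312), with 79.6 TPM at 1 h against 147 and 118 TPM in saturated cultures. With plain library totals its value was −1.02 and did not pass (adjusted p = 0.121), and it passed under the other 7 alternatives. The single library at 1 h is assumed to vary like the pairs.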

How the results depend on the processing

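Of the members' changes under alternatives, 367 kept their side of the threshold, 9 lost the call and 30 gained one. None of the called changes turned direction, while some values that did not pass crossed 0, such as TPS3 in the lawn (0.27 with plain library totals). Leaving out each replicate gave 3 to 5 members called in saturated cultures, 1 to 6 at 1 h of rapamycin, 1 to 3 at 4 h and 1 to 4 in the lawn, with the lowest counts without log-phase replicate 1. Between 4 h and 1 h of rapamycin it gave 0 to 2, and between the lawn and saturated cultures 0 to 1, where DESeq2 called 1 (TSL1). Neighbours in the order of levels that differed numbered 2 to 6. A saturated replicate left out gave the higher counts, and there the fit pools its spread fully over genes, with a common dispersion of 0.0328 or 0.0327 against 0.0561 with all libraries. Without log-phase replicate 1 the common dispersion was 0.0784. Over all genes, calls at 1 h of rapamycin against log phase numbered 734 when log-phase replicate 1 was left out and 2285 or 2271 when saturated replicate 1 or 2 was, against 1208, at 4 h 688 and 2764 or 2734, against 1532, in the lawn 1553 without log-phase replicate 1, against 2422, and in saturated cultures 1990, against 3086. Between 4 h and 1 h they numbered 1408 or 1387 in these saturated cases, against 365, and between the lawn and saturated cultures 1199 or 1636, and 1603 with plain library totals, against 710. The labels number a replicate 2 in log phase and in saturated cultures, and over genes the deviations of these libraries correlated with r = 0.16, from 2 pairs. With the replicate block on these 4 libraries 6 members were called in saturated cultures, where 3230 of 5539 genes were called in either direction. TPS1 was among the 6 (0.68, edgeR, adjusted p = 0.0328), and of 10 alternatives it passed under this 1 alone. The genes most like each member were the same 5 under both alternatives, except 4 of 5 for ATH1 with a pseudocount of 0.1. Depth limits ATH1 most in log-phase replicate 2 (174 reads), and TPS3 (183) and NTH2 (196) in saturated replicate 2.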
